A study of Mus musculus with 6 samples.

Results

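The kinesin superfamily was described here in whole testes of Rnu11 cKO (conditional knockout) mice and in control testes. Members were all genes whose symbol is Kif followed by a number, with or without a letter from a to c, or Kifc followed by a digit, plus Kifap3, the accessory subunit that links kinesin-2 to its cargo. This gave 42 of the 55353 gene symbols in the files, and 258 of 142647 isoforms. All 42 were matched by symbol to a protein-coding gene of GENCODE M21 (GRCm38).

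Testes were taken whole at postnatal day 14, and 3 libraries came from controls and 3 from Rnu11 cKO mice. Libraries were counted as separate animals, following the wording of the series design. The sources used here name neither the Cre line and the cells it acts in, nor the control alleles, nor the strain. Rnu11 encodes U11, the small nuclear RNA with which the minor spliceosome recognises the 5′ splice site of a small class of introns.

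Kinesins are motors that walk along microtubules or shorten them, using ATP. In the testis, spindle kinesins build and take apart the spindles of mitotic spermatogonia and of meiotic spermatocytes, kinesin-2 and its relatives build cilia and the sperm flagellum, and kinesins of the other families carry vesicles and organelles in germ cells and in somatic cells such as Sertoli cells. Kifap3 was included because it is listed as a minor intron gene. Most donors of the other kinesins could not be read, so those genes were not fully searched for minor introns.

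Expression was deposited as TPM (transcript abundance per length, scaled to a fixed total in each library), which keeps no record of depth. Rnu11 was at 614, 576 and 550 TPM in controls 1 to 3, and at 196, 393 and 203 TPM in mutants 1 to 3. Every mutant library was below every control, with mutant 2 nearest to them. The libraries listed 30113 to 34510 genes above 0 and 41 or 42 of the 42 kinesins. Some markers of the cells of the testis also differed between the groups. The summed level of 16 leptotene and zygotene markers was 541 to 680 TPM in controls and 391 to 504 TPM in mutants, that of 15 Sertoli cell markers 1898 to 2291 against 2677 to 3596 TPM, and that of 7 Leydig cell markers 124 to 235 against 246 to 383 TPM. No marker of these lists was at 0 in all libraries. Control 2 stood apart from the other controls, with the lowest leptotene and zygotene sum and the highest Sertoli and Leydig sums of the controls. The sum of 10 pachytene markers was 222, 80.6 and 214 TPM in controls 1 to 3. In mutants 1 to 3 it was 74.3, 74.8 and 110 TPM, so control 2 lay within the range of the mutants. The sums of round spermatid, peritubular myoid, endothelial and macrophage markers also overlapped between the groups. In whole testis, fewer cells of a type and less RNA per cell cannot be told apart, and the part of cell makeup in the results below was not tested.

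Mean differences varied by role class, and the classes were chosen with earlier results of these data known. All tested spindle kinesins had a lower mean in the mutants. The median of the organelle transport class, 0.10, was near that of all genes, 0.09. That class held the 3 kinesins in which all mutants were above all controls. The median of the cilium class lay between those of the other 2. Of the 42 kinesins, 37 had a mean of at least 1 TPM and were tested with limma on log2(TPM + 1) among 17959 genes. None passed an adjusted p of 0.05, as for nearly all genes of these libraries, of which 0.0278% passed. Rnu11 itself, with a log2 difference of -1.21, had a limma adjusted p of 0.29. A gene that is not called is therefore not shown to be unchanged. At an unadjusted p under 0.05 there were 12 kinesins, 7 lower and 5 higher, where the background was 16.1% of all genes, 3.98% lower and 12.1% higher. The groups did not overlap in 15 kinesins: all mutants were below all controls in 12, against 5.77% of all genes, and above them in 3, against 14.5%. The log2 difference, mutant minus control, was below 0 in 24 of 37 kinesins, against 33.6% of all genes. Its median was -0.10 for the kinesins, or -0.19 and -0.21 under median-ratio and protein-coding scaling, and 0.09 for all genes. Because that median of all genes moves to 0.00 when libraries are scaled by median ratios and to -0.02 when TPM is rescaled over protein-coding genes, small differences of either sign are read against it.

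**Figure D1:**
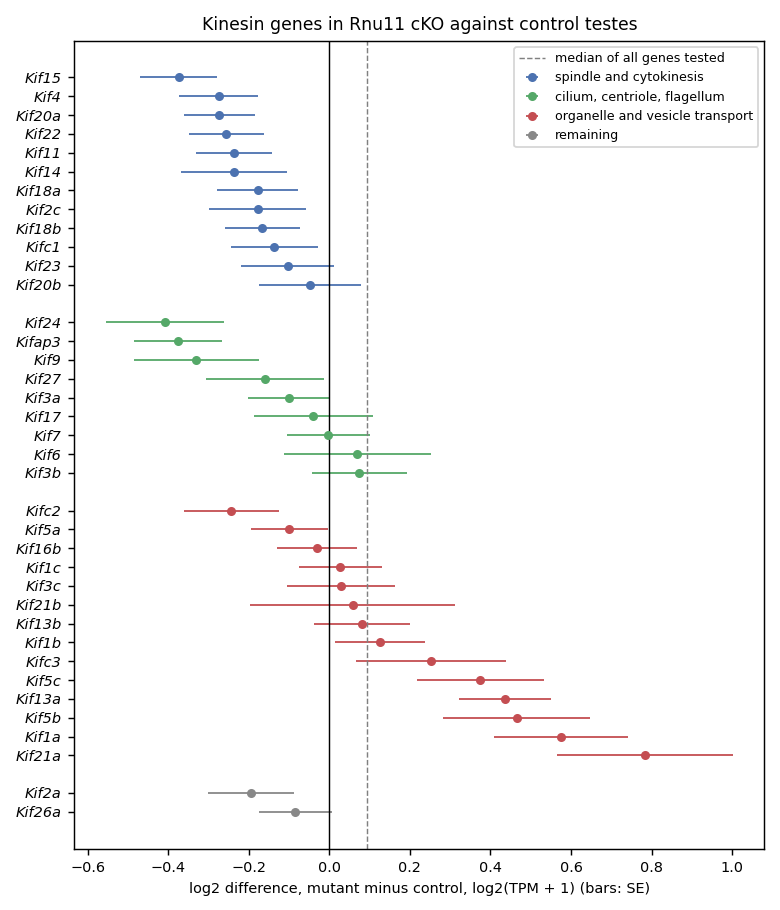
Log2 difference, mutant minus control, on log2(TPM + 1) for the 37 kinesins tested, ordered within role classes, with the standard error as bars and the median of all genes (0.09) dashed. All 12 spindle kinesins lie below 0, while the transport kinesins spread from -0.24 to 0.78; rescaling over protein-coding genes moves Kif1b, here at 0.13, to -0.01 and leaves 6 of the 14 transport kinesins above 0.

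The total kinesin level was alike in the groups, at 497 to 565 TPM in controls and 509 to 573 TPM in mutants. The highest levels belonged to Kif5b, Kif23, Kif1b, Kif21a and Kif2a, in that order by mean TPM over the 6 libraries. The 5 kinesins below 1 TPM were Kif12, Kif19a, Kif26b, Kif28 and Kif2b, which ranged from 0 to 0.556 TPM over the libraries and were not tested. Among them Kif2b, a microtubule depolymerase of the mitotic spindle, was at 0.093, 0.104 and 0.172 TPM in controls and 0.043, 0.038 and 0.072 TPM in mutants.

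The spindle and cytokinesis class has 13 members, 12 of them tested. All 12 had a lower mean in the mutants, against 33.6% of all genes. The median difference was -0.21 (-0.33 under protein-coding scaling), with a range of -0.37 to -0.05. In 8 of the 12 every mutant was below every control, against 5.77% of all genes. These were Kif4, Kif11, Kif14, Kif15, Kif18a, Kif18b, Kif20a and Kif22. For Kif14 the groups nearly touched, at 3.631 TPM in control 1 and 3.626 TPM in mutant 3. The summed level of the class was 192 to 209 TPM in controls and 168 to 176 TPM in mutants, so the groups did not overlap. All 12 stayed below 0 under both other scalings and without control 2. Without mutant 3, 11 of 12 did.

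Kif15, a motor that helps Kif11 to keep spindle poles apart, was at 23.9, 20.7 and 20.2 TPM in controls and 16.8, 15.7 and 16.6 TPM in mutants. The lowest control was above the highest mutant, and the mutants lay close together. The means were 21.6 ± 2.03 and 16.4 ± 0.60 TPM (SD, n = 3 each), a log2 difference of -0.37 (SE 0.10, limma adjusted p = 0.29). Kif15 (ENSMUSG00000036768.6) spans chr9:122951046-123018733 on the plus strand.

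Kif20a, which carries the chromosomal passenger complex to the central spindle, was at 20.9, 19.9 and 19.7 TPM in controls and 15.3, 17.2 and 17.2 TPM in mutants. All mutants were below all controls, and the log2 difference was -0.27 (SE 0.09). Kif4, a chromokinesin that acts with Prc1 on the central spindle, was at 4.77, 4.97 and 5.44 TPM in controls and 3.77, 4.13 and 4.11 TPM in mutants, with a log2 difference of -0.28 (SE 0.10). Kif22, which pushes chromosome arms away from the poles, was at 23.2, 22.2 and 23.7 TPM in controls and 20.4, 17.4 and 19.7 TPM in mutants, with a difference of -0.26 (SE 0.09). These 3 genes did not overlap between the groups, and each had a limma adjusted p of 0.29.

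Kif23 was the most abundant spindle kinesin. It is the motor of centralspindlin, which gathers at the midbody and at the bridges that join dividing germ cells. It was at 54.7, 67.5 and 60.9 TPM in controls and 60.9, 58.4 and 50.8 TPM in mutants. The groups overlapped, and the difference of -0.10 was smaller than its standard error of 0.12. The other 7 tested members differed by -0.24 to -0.05: Kif11, which pushes the poles apart, Kif14 and Kif20b, which act in cytokinesis, Kif18a, which damps chromosome movement, Kif18b, which limits the length of astral microtubules, the depolymerase Kif2c and the minus-end motor Kifc1. Reads of Kifc1 may be split with its near-identical copy Kifc5b, so its value is uncertain.

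**Figure D2:**
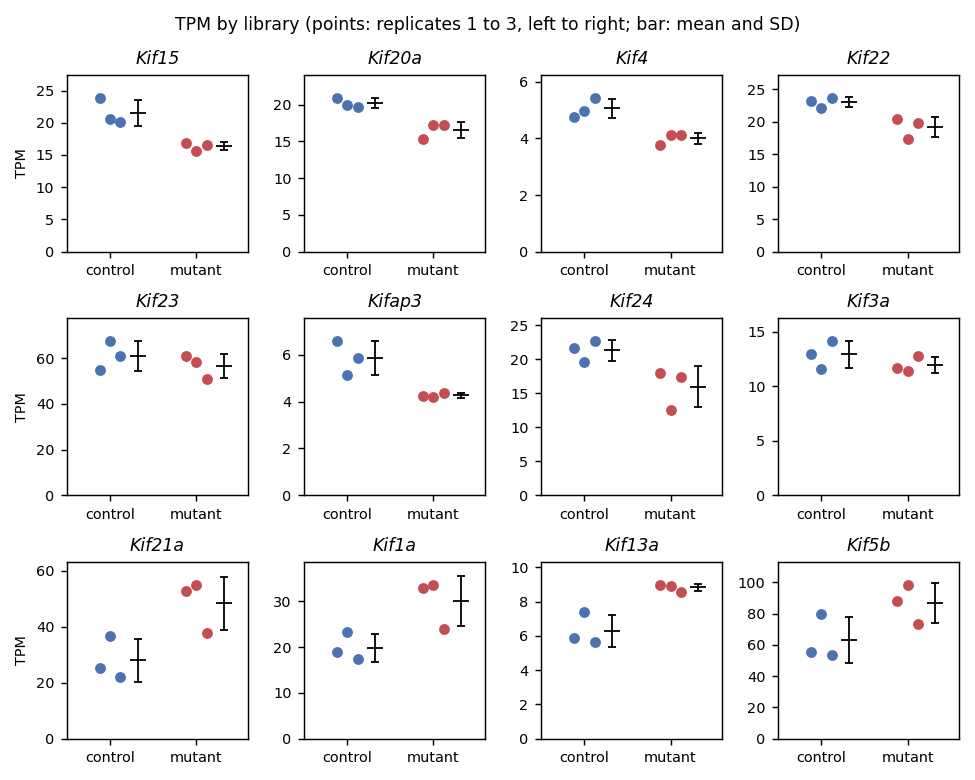
TPM in each library for 12 kinesins, with the 3 controls in blue, the 3 mutants in red, and the mean and SD beside each group. Groups do not overlap for Kif15, Kif20a, Kif4, Kif22, Kifap3, Kif24, Kif21a, Kif1a and Kif13a, and overlap for Kif23, Kif3a and Kif5b.

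The partners of the spindle kinesins were on the same side. Of 28 tested genes in a list of central spindle, checkpoint, Aurora, cyclin and other mitotic genes, 23 were lower and 5 higher in mean. Of all genes 33.6% were lower. The median of the list was -0.22. The list also holds Kifc5b, the near-identical copy of Kifc1, which is itself a kinesin and was among the lower genes. All mutants were below all controls in 15 of the 28, against 5.77% of all genes, and above them in 1, Ckap5, against 14.5%. None passed the adjusted threshold with limma, and 8 had an unadjusted p under 0.05, all lower, against 3.98% of all genes. Prc1, which bundles the microtubules of the central spindle, was at 27.1, 22.0 and 21.2 TPM in controls and 12.7, 15.01 and 16.2 TPM in mutants, a difference of -0.64 (SE 0.13, limma adjusted p = 0.29).

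The 3 other partners with the smallest p also did not overlap. The mitotic kinase Aurka differed by -0.36 (controls 15.3, 16.2 and 16.8, mutants 12.7, 11.9 and 12.3 TPM). The passenger protein Cdca8 differed by -0.34 (controls 27.1, 27.6 and 29.4, mutants 22.8, 21.3 and 21.6 TPM). The cyclin Ccnb2 differed by -0.38 (controls 19.9, 17.8 and 21.6, mutants 16.2, 13.4 and 15.4 TPM). Each had a limma adjusted p of 0.29. Beside these, the summed level of 6 markers of differentiating spermatogonia, was 331 to 349 TPM in controls and 251 to 284 TPM in mutants, while that of 8 markers of undifferentiated spermatogonia was 36.7 to 43.5 TPM in controls and 43.6 to 47.1 TPM in mutants. Both kinds of cell divide by mitosis, and their part in the lower level of the spindle kinesins was not tested.

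Promoter windows were searched for motifs known from genes of the dividing cell, because the spindle kinesins had lower means together. TTTGAA is the cell cycle homology region, CCAAT the NF-Y motif and AACNG the MYB core. They were searched on both strands in the 250 bases before the RefSeq start (GRCm38.p6), for the 33 of 42 symbols with an entry. The first 2 can share at most 1 base, and the MYB core can share bases with the cell cycle motif. The 12 spindle kinesins with an entry are not the 12 tested ones: they lack Kif20a and include Kif2b, which was not tested and held the NF-Y motif. A kinesin with more than 1 entry was counted once, if any entry matched, while the share of all promoters counts each entry. The cell cycle motif was found in 5 of 12 spindle, 1 of 9 cilium, 1 of 8 transport and 1 of 4 remaining kinesins, against 16.0% of all 32851 promoters. The NF-Y motif was found in 8 of 12 spindle, 6 of 9 cilium, 1 of 8 transport and 1 of 4 remaining kinesins, against 33.8%. The MYB core was found in 9 of 12 spindle, 9 of 9 cilium, 7 of 8 transport and 4 of 4 remaining kinesins, against 74.2%.

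Several RefSeq starts lie more than 250 bases inside the GENCODE gene, and so do their windows. Among the windows with the cell cycle motif these are Kif14 (1505 bases inside) and Kif2c (3867) of the spindle class, Kif27 (4175) of the cilium class and 1 of the 2 starts of Kif1a (19471) of the transport class. Kif11, Kif15 and Kif22 of the spindle class and Kif26b of the remaining members had the motif near the gene's own start. It began 19 bases before the RefSeq start in Kif11 and Kif15 and 17 bases before it in Kif22. Each time it was on the other strand, where it reads TTCAAA. That start lies 35 bases inside the GENCODE gene in Kif15 and 51 bases inside it in Kif22, so these matches lie within the gene. In Kif11 the start and the match lie outside the GENCODE gene. The last 30 bases before the start of these 3 genes are printed to show that likeness, a stretch chosen after the matches were seen, 5′ to 3′ on the gene's strand with the motif in capitals. They lie at chr19:37376352-37376381 (+), chr9:122951051-122951080 (+) and chr7:127042421-127042450 (-).
Kif11: cgtctccatttTTCAAAattgaggcgcgga
Kif15: ggggcgccaaaTTCAAAtctgcggccatct
Kif22: ggggccccggtaaTTCAAAagagagaagcg

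The whole window of Kif11, at chr19:37376132-37376381 (+), is set beside that of the transport kinesin Kif21a, at chr15:91049952-91050201 (-), whose gene differed most between the groups, with the cell cycle and NF-Y motifs in capitals on either strand. In Kif11, the NF-Y motif on the other strand began 45 bases before the start. The Kif21a window held neither motif. A match of letters is a description and not a site of binding, and no match says only that these letters are not in the window.
Kif11: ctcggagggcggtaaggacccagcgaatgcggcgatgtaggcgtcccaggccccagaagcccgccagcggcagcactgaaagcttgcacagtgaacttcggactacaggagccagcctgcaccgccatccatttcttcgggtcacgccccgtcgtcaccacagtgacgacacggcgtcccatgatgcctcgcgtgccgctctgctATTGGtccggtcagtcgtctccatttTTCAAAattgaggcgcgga
Kif21a: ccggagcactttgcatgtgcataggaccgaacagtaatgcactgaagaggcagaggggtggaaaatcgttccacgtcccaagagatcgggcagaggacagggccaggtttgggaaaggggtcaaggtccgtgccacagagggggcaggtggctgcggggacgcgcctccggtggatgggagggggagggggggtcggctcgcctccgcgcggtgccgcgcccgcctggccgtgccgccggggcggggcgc

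The class of the cilium, centriole and flagellum has 10 members, 9 of them tested. The mean was lower in 7, against 33.6% of all genes. In Kif24, Kifap3 and Kif9 every mutant was below every control, which is 3 of 9 against 5.77% of all genes. For Kif9 the groups nearly touched, at 2.279 TPM in control 2 and 2.273 TPM in mutant 2. The median difference was -0.10, and it moved to -0.20 and -0.23 under median-ratio and protein-coding scaling, -0.16 without control 2, -0.04 without control 3 and -0.06 without mutant 2. The sum was 60.6 to 71.5 TPM in controls and 54.3 to 59.8 TPM in mutants. On log2(TPM + 1), the mean difference of the class from the control mean was 0.02, -0.12 and 0.10 in controls 1 to 3. In mutants 1 to 3 it was -0.12, -0.19 and -0.11, so by this measure the groups overlapped through control 2.

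Kifap3 was at 6.58, 5.14 and 5.85 TPM in controls and 4.22, 4.19 and 4.37 TPM in mutants. The 3 mutants lay within a narrow band below the lowest control, and the means were 5.85 ± 0.72 and 4.26 ± 0.10 TPM (SD, n = 3 each). This was 1.37-fold lower, with a log2 difference of -0.38 (SE 0.11, unadjusted p = 0.011, limma adjusted p = 0.29). Over all alternative settings its difference stayed between -0.49 and -0.30. Kifap3 (ENSMUSG00000026585.13) spans chr1:163779583-163917109 on the plus strand. The authors' deposited table gives it a log2 fold change of -0.41 under the heading confident and of -0.46 under single run.

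The motors that bind Kifap3 to form heterotrimeric kinesin-2, which carries cargo towards the tip of cilia, differed less and overlapped. Kif3a was at 13.0, 11.6 and 14.1 TPM in controls and 11.7, 11.4 and 12.8 TPM in mutants. Its groups overlapped, with a difference of -0.10 (SE 0.10). Kif3b also overlapped, with a difference of 0.07 (SE 0.12). The difference between Kifap3 and its partner motors was not tested.

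Kif24, which trims centriolar microtubules and holds back the growth of cilia, was the most abundant of the class. It was at 21.7, 19.7 and 22.7 TPM in controls and 17.98, 12.6 and 17.4 TPM in mutants. Every mutant was below every control, mutant 2 by the most, and the difference was -0.41 (SE 0.15, limma adjusted p = 0.29), or -0.25 without mutant 2. The other tested members lay between -0.33 and 0.07: Kif9 and Kif6 of the motile axoneme, Kif17, the homodimeric kinesin-2 motor, Kif7, which regulates Hedgehog signalling at the ciliary tip, and its relative Kif27. Within the class, only Kif6 and Kif3b had a higher mean in the mutants.

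The organelle and vesicle transport class has 14 members, all tested. The mean was higher in 11 and lower in 3 with TPM as deposited, but higher in 7 of 14 after median-ratio scaling and in 6 of 14 after scaling over protein-coding genes. The median was 0.10 as deposited, near that of all genes, 0.00 and -0.03 under these scalings, and 0.31 over the 10 members of at least 5 TPM. Leaving out control 2, control 3 or mutant 3 raised it to 0.22, 0.17 or 0.17. In Kif13a, Kif21a and Kif1a every mutant was above every control, which is 3 of 14 against 14.5% of all genes, and each of these differences kept its sign under every alternative tried. In Kifc2, a minus-end motor, every mutant was below every control, with a difference of -0.24. The class summed to 199 to 252 TPM in controls and 242 to 309 TPM in mutants, so the groups overlapped.

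Kif21a, a motor that restrains the growth of microtubules near the cell cortex, was at 25.2, 36.5 and 22.0 TPM in controls and 52.6, 54.9 and 37.6 TPM in mutants. The lowest mutant, mutant 3, was just above the highest control, control 2. The means were 27.9 ± 7.61 and 48.4 ± 9.42 TPM (SD, n = 3 each), which is 1.73-fold higher, with a log2 difference of 0.78 (SE 0.22, limma adjusted p = 0.29). The gene (ENSMUSG00000022629.17) spans chr15:90933276-91049948 on the minus strand. It had the greatest difference of the 37 tested kinesins in either direction.

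Kif1a, the carrier of synaptic vesicle precursors and dense-core vesicles in neurons, was at 18.9, 23.3 and 17.3 TPM in controls and 32.9, 33.7 and 23.9 TPM in mutants. Again mutant 3 and control 2 were the nearest libraries, and the means differed 1.52-fold (log2 difference 0.58, SE 0.17, limma adjusted p = 0.29). Kif13a, which moves recycling endosomes, was at 5.87, 7.38 and 5.65 TPM in controls and 8.99, 8.92 and 8.58 TPM in mutants. Here all 3 mutants were close together and clear of the controls, with a 1.40-fold higher mean (log2 difference 0.44, SE 0.11, limma adjusted p = 0.29).

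Kif5b, the heavy chain of conventional kinesin and the most abundant kinesin of these testes, was at 55.5, 79.9 and 53.8 TPM in controls and 88.0, 98.4 and 73.3 TPM in mutants. Control 2 was above mutant 3, so the groups overlapped, and the log2 difference was 0.46 (SE 0.18, limma adjusted p = 0.30). Kif1b, which carries mitochondria and vesicles, was at 33.6, 42.4 and 38.7 TPM in controls and 43.0, 43.2 and 38.8 TPM in mutants. Its difference of 0.13 (SE 0.11) became -0.01 with scaling over protein-coding genes. The other 8 transport kinesins beside Kifc2 differed by -0.10 to 0.37, with Kif5a at the lower end and Kif5c, like Kif5a known from neurons, at the upper end, and all 8 overlapped.

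The level of the transport class in each library is given beside that of somatic markers. The mean difference of the class from the control mean was -0.10, 0.12 and -0.02 in controls 1 to 3 and 0.24, 0.29 and 0.07 in mutants 1 to 3 on log2(TPM + 1). For the 15 Sertoli markers it was -0.02, 0.19 and -0.17 in controls and 0.59, 0.71 and 0.24 in mutants. For the 7 Leydig markers it was -0.37, 0.68 and -0.31 in controls and 0.84, 1.5 and 0.85 in mutants, and for the 5 peritubular myoid markers -0.23, 0.03 and 0.20 in controls and 0.23, 0.17 and -0.09 in mutants. For the 5 endothelial markers it was -0.06, 0.11 and -0.05 in controls and 0.31, 0.41 and 0.03 in mutants. For the 6 macrophage markers it was -0.003, 0.29 and -0.29 in controls and 0.46, 0.60 and 0.14 in mutants. Control 2 was the highest control for the transport kinesins and the Sertoli, Leydig, endothelial and macrophage markers, but not for the myoid markers. Mutant 3 was the lowest mutant for the transport kinesins and the Sertoli, myoid, endothelial and macrophage markers, but not for the Leydig markers. The spindle class had a flatter profile, at -0.04, 0.05 and -0.01 in controls and -0.22, -0.18 and -0.21 in mutants. The part of the somatic markers in the level of Kif21a, Kif1a and Kif5b was not tested.

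**Figure D3:**
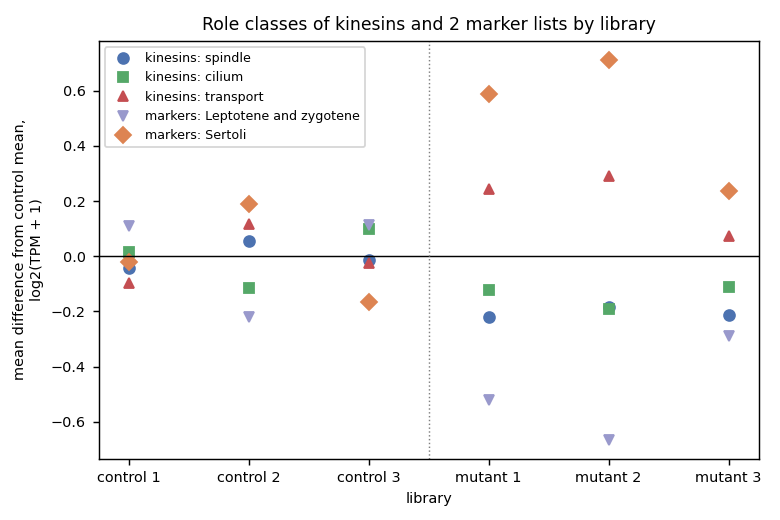
Mean difference from the control mean, on log2(TPM + 1), of 3 role classes of kinesins and of 2 marker lists in each library. The spindle kinesins lie near -0.2 in all 3 mutants, while the transport kinesins and the Sertoli markers are both highest in mutant 2; the sign of the transport class median depends on the scaling (0.10 as deposited, -0.03 over protein-coding genes).

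The adaptors and cargo partners of the transport kinesins gave 11 higher and 5 lower means among 16 tested genes, with a median of 0.10, near the background of 33.6% lower and a median of 0.09 for all genes, and none passed the adjusted threshold with limma. At an unadjusted p under 0.05 there was 1 of 16, against 16.1% of all genes, 12.1% higher. This was Trak1, which links Kif5 motors to mitochondria. It was at 37.7, 37.9 and 36.0 TPM in controls and 54.0, 56.9 and 39.8 TPM in mutants, a difference of 0.41 (SE 0.14, limma adjusted p = 0.29), with no overlap. All mutants were above all controls in 2 of the 16, Trak1 among them, against 14.5% of all genes. Fez2 (0.33), Arl8a (0.32) and Plekhm2 (0.39) had higher means with overlapping libraries. Arl8a and Plekhm2 couple lysosomes to kinesin.

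Of the remaining 5 members only Kif2a and Kif26a were tested. Kif2a, a microtubule depolymerase, was at 33.2, 38.1 and 41.0 TPM in controls and 33.6, 30.1 and 33.8 TPM in mutants. The groups overlapped through control 1, and the difference was -0.19 (SE 0.11). Kif26a, a kinesin without motor activity, was at 4.61, 4.81 and 4.83 TPM in controls and 4.66, 4.27 and 4.34 TPM in mutants, with a difference of -0.08 (SE 0.09). Of 3 kinesins whose symbols fall outside the rule, the kinetochore motor Cenpe differed by -0.10, the centrosomal Stard9 by 0.21 and Kifc5b by -0.19.

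Among isoforms, 115 of the 258 had a mean of at least 1 TPM and were tested among 44197. None passed the adjusted threshold with limma, against 0.0136% of all isoforms, and 17 had an unadjusted p under 0.05, against 11.2%. Of these 9 were lower and 8 higher, against 3.18% and 8.06%. All mutants were below all controls in 21 and above them in 9, against 5.17% and 11.6% of all isoforms. Several isoform models are short fragments, and a quantifier can split reads among overlapping models, so single isoforms are less certain than their genes.

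Kif21a supplied 3 of the 6 isoforms with the smallest p. Kif21a-206, a protein-coding model of 7 exons and 750 bases, was at 1.23, 1.96 and 1.53 TPM in controls and 6.41, 6.57 and 3.76 TPM in mutants. All mutants were well above all controls, with a log2 difference of 1.33 (SE 0.21, limma adjusted p = 0.27). Kif21a-201, with 36 exons, was at 2.76, 3.80 and 5.39 TPM in controls and 11.7, 8.83 and 7.78 TPM in mutants, a difference of 1.08. Kif21a-203, with 37 exons, was at 1.88, 2.93 and 1.87 TPM in controls and 4.51, 6.50 and 3.04 TPM in mutants, a difference of 0.79. All 3 were without overlap.

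Kif1a-209, a processed transcript of 325 bases, was at 8.71, 8.41 and 7.92 TPM in controls and 13.2, 13.1 and 10.6 TPM in mutants, a difference of 0.51. This short model held 36.1% to 46.1% of the TPM of Kif1a, so a large part of that gene's level rests on it. Kif24-208, with 3 exons, was at 4.39, 4.19 and 4.80 TPM in controls and 2.87, 2.73 and 2.16 TPM in mutants, a difference of -0.61. Kif20a-201, with 19 exons, was at 2.90, 3.17 and 2.09 TPM in controls and 1.18, 1.22 and 1.84 TPM in mutants, a difference of -0.62. None of the 3 overlapped.

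Kifap3 has 2 isoforms in the files, and neither retains an intron, so the splicing of its minor intron could not be read as a ratio of isoforms. Kifap3-201 was at 6.05, 4.31 and 5.08 TPM in controls and 3.62, 3.62 and 4.00 TPM in mutants, with no overlap and a difference of -0.37 (SE 0.13, limma adjusted p = 0.43). Kifap3-202, which differs by a 66-base exon at chr1:163912072-163912137, averaged 0.61 TPM and was not tested as a level. It made up 8.06%, 16.1% and 13.1% of Kifap3 in controls and 14.4%, 13.6% and 8.61% in mutants, which overlapped.

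**Figure D4:**
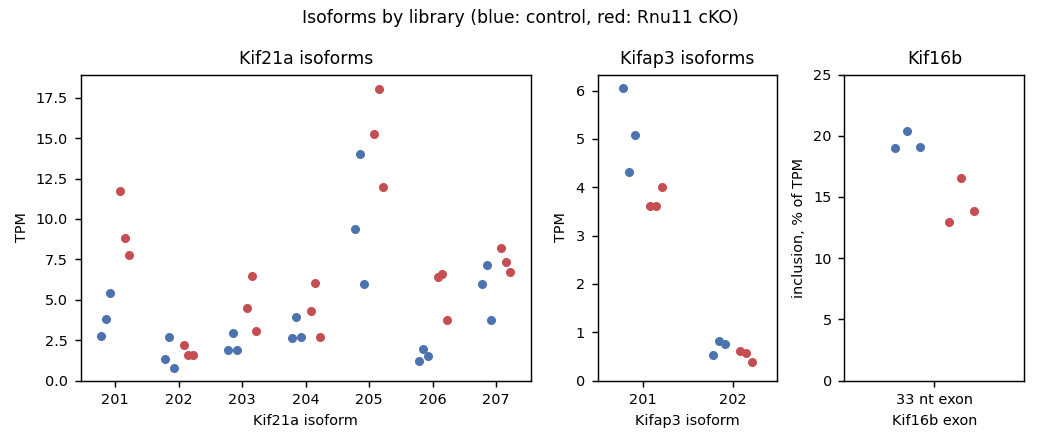
TPM by library of the 7 Kif21a isoforms and the 2 Kifap3 isoforms, and inclusion of the 33-base exon of Kif16b in percent, with controls in blue and mutants in red. Mutants lie above all controls for Kif21a-201, Kif21a-203 and Kif21a-206, and below all controls for Kifap3-201 and for the Kif16b exon.

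The share of an isoform within its gene separates isoform use from the level of the gene. Of 119 kinesin isoforms tested for their share among 35636, none passed the adjusted threshold with limma (background 0.0112%), and 5 had an unadjusted p under 0.05, against 5.78%. In 13 the groups did not overlap, against 11.7% of all isoforms, 7 of them lower and 6 higher, against 5.9% and 5.78%. These shares of the kinesins are near the background. The share of Kif21a-206 was 4.86%, 5.36% and 6.97% in controls and 12.2%, 11.96% and 10.02% in mutants (limma adjusted p = 0.70). That of Kif18a-203, a retained-intron model, was 9.18%, 10.3% and 9.003% in controls and 17.0%, 12.5% and 16.3% in mutants (limma adjusted p = 0.82). Neither overlapped.

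The other 2 shares with the smallest p were of transport kinesins. Kif16b-205 made up 14.6%, 15.6% and 15% of Kif16b, a motor of early endosomes, in controls and 9.78%, 12.3% and 10.2% in mutants (limma adjusted p = 0.86), without overlap. Kifc3-212 made up 3.68%, 1.72% and 0% of Kifc3, a minus-end motor, in controls and 4.38%, 17.3% and 7.51% in mutants (limma adjusted p = 0.86). It was listed at 0 in control 3, and mutant 2 stood far above the others.

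By class of model, retained-intron isoforms held 22.1% to 22.4% of the kinesin TPM in controls and 20.4% to 22.2% in mutants. Nonsense-mediated decay models held 2.0% to 2.5% and 1.9% to 2.3%, and protein-coding models 68.3% to 69.4% and 68.8% to 70.4%. The ranges of the groups overlapped in each of these classes.

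Alternative exons were compared after the isoform values had been seen, as the TPM of isoforms that hold an exon in percent of those that hold or skip it. There were 37 such exons in 18 kinesins, and in 3 the groups did not overlap, each with less inclusion in the mutants. Exons of other genes were not compared, so this count has no background and is not read as a trait of kinesins. With 3 libraries against 3, an exact two-sided permutation test can give no p below 0.1, and these 3 reached 0.1 (0.74 adjusted over the 37). The 33-base coding exon of Kif16b at chr2:142715062-142715094 (-), which only Kif16b-205 holds, is printed because it is the sequence behind that isoform's share, and the 68-base coding exon of Kif2a at chr13:106974495-106974562 (-) because its length is no multiple of 3. Both are given 5′ to 3′ on the gene's strand from GENCODE M21, with nothing capitalised.
Kif16b exon: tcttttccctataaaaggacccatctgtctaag
Kif2a exon: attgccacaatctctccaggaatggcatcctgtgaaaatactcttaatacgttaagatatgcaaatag

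Inclusion of the Kif16b exon was 19.03%, 20.4% and 19.1% in controls and 13.0%, 16.5% and 13.8% in mutants. Inclusion of the Kif2a exon was 97.7%, 99.0% and 96.9% in controls and 94.7%, 96.3% and 94.6% in mutants, so it was skipped in few transcripts of either group. The last of the 3 was a noncoding exon of 145 bases in Kif24, at 40.6%, 39.5% and 38.3% in controls and 34.8%, 37.0% and 31.7% in mutants. The 7 alternative exons of Kif21a overlapped.

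Minor introns were looked for by their donor, which begins with A or G followed by TATCCTT. No genome was at hand, so a donor could be read only where another isoform runs into the intron, which was the case for 105 of 999 kinesin introns. Of these 1 matched, against 0.484% of 32415 readable donors of protein-coding genes. It belongs to an intron of Kif6 at chr17:49755237-49758421 (+), of 3185 bases. The donor is shown with 10 bases of exon before the motif, which is in capitals.
Kif6 donor: aacgagatcaGTATCCTTtctcgggggaga

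Isoforms of Kif6 that read into this intron made up 61.0%, 46.3% and 47.3% of those that read into or splice it in controls, and 50.9%, 62.2% and 62.4% in mutants. The groups overlapped, since control 1 was above mutant 1. The end of the intron and its branch point could not be read, and a match of the donor alone does not make it a minor intron.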

How the data were processed

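Total RNA of 3 control and 3 Rnu11 cKO whole testes was sequenced as rRNA-depleted stranded libraries, per the labels' protocols. Alignment was with HISAT2 on GRCm38, per the submitters' processing notes. The sources used here name no quantifier or annotation. TPM values of genes and of isoforms were deposited for each library, and the authors also deposited a table of log2 fold changes and group means, which was used for description only. Since TPM carries no depth, counting intervals cannot be set, and 0 may mean that estimation failed.

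Groups and replicate numbers came from the labels. Genes and isoforms with a mean of at least 1 TPM were fitted with limma 3.58.1 (lmFit, eBayes with trend, R 4.3.3) on log2(TPM + 1) of all 6 libraries, two-sided, with Benjamini-Hochberg adjustment over all features tested and a threshold of 0.05. Log2 differences understate the change of genes near 1 TPM. Shares were fitted without trend on the log2 ratio of an isoform to its gene's other isoforms (0.1 TPM added to both), for genes of at least 5 TPM and shares of 5% to 95%. Alternatives were another pseudocount, other filters, both other scalings, no trend, a replicate block and leaving out each library. The fits were checked on simulated data. Python 3.11.15, pandas 2.3.3 and matplotlib 3.10.9 were used for tables and figures.

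Of the symbols in the files, 53461 of 55353 matched GENCODE M21, as did 141524 of 142647 isoforms. Values in each library are given for Kifap3, the 8 members of smallest p, the 2 tested members of highest mean TPM in each role class, the 6 isoforms and 4 shares of smallest p, and up to 4 partner genes; Rnu11, Kif2b and the exons of the isoform section were added after their values were seen. Where another member is singled out, it was chosen after its values were seen. The members, role classes and lists were chosen with earlier results of these data known.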

Additional observations from a re-analysis of the deposited data

How the results depend on the processing

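No kinesin gene, isoform or isoform share passed the threshold under any alternative run, including those without 1 library; the smallest adjusted p in limma ranged from 0.0998 to 0.625 for genes, 0.183 to 0.708 for isoforms and 0.480 to 0.965 for shares. Of 312 alternative values of single named genes, isoforms and shares, 311 kept their direction, and Kif1b became -0.012 when TPM was rescaled over protein-coding genes.

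Medians followed the scaling. With median-ratio scaling and with scaling over protein-coding genes, the median difference was -0.19 and -0.21 for all kinesins, and -0.30 and -0.33 for the spindle class. For the transport class it reversed to -0.0010 and -0.030, with 7 and 6 of 14 higher, and for the cilium class it was -0.23 over protein-coding genes. With a filter of 5 TPM, 10 transport kinesins were left, with a median of 0.31. Leaving out 1 library gave -0.14 to -0.071 for all kinesins, -0.25 to -0.15 for the spindle class, 0.093 to 0.22 for the transport class and -0.16 to -0.038 for the cilium class. The value nearest to 0 for the spindle class and the highest for the transport class came without control 2. The cause of these shifts was not tested.

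The replicate numbers did not pair the libraries: deviations from the group means correlated at -0.07, 0.03 and 0.08 between same-numbered libraries. With the number as a replicate block, 0 kinesin genes, 0 isoforms and 0 shares were called, and the median difference of the kinesins was -0.10. The ratio of spliced to unspliced isoforms at the minor intron of Kifap3 gave no value. Groups of 3 libraries limit every test here, and TPM gives no depth from which a counting error could be set.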
